A study of Homo sapiens with 10 samples.

Results

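The pyruvate dehydrogenase kinases PDK1, PDK2, PDK3 and PDK4 and 6 genes of lipolysis and fatty acid oxidation, CPT1A, CPT2, ACADM, ACSL1, LIPE and PLIN2, were followed across all 10 arrays of a progestin experiment in T47D breast cancer cells. They were chosen by earlier results of these arrays, among them the difference with progestin in the presence of the inducer, and every probe set mapped to one of these symbols alone was taken. This gave 20 probe sets for 10 of the 11963 genes that the arrays measured with a probe set of their own, and all 10 genes passed the filter on low values, which asks for log2 6 or more on at least 1 array and kept 10911 genes. PDK4 passed this filter through 3 arrays only, the 2 where it was high and 1 of the empty-vector line.

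The cells are T47D-Y, a derivative of the T47D luminal breast cancer line without progesterone receptor (PR), carrying inducible vectors. The iEV line holds the empty vector, iWT holds wild-type PR-B, and iKR holds the K388R mutant of PR-B, which cannot be SUMO-modified at that lysine. Each line is a clonal line, so vector and clone cannot be told apart. All cells were serum starved, with the dimerizer AP21967, which joins the parts of an artificial transcription factor that drives the vector, or its ethanol vehicle for 2 days, followed by the synthetic progestin R5020 or ethanol for 6 h. The labels write the doses as 10e-9 M AP21967 and 10e-8 M R5020, which taken literally lie above the doses in the methods. For iWT and iKR there are arrays of the 4 combinations of AP21967 and R5020, and for iEV of AP21967 and its vehicle only, both without R5020. There was 1 array per condition, so a difference between 2 arrays has no replicate check and is given without a p.

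PDK enzymes phosphorylate the pyruvate dehydrogenase complex and switch it off, which keeps the carbon of pyruvate from entering the citric acid cycle as acetyl-CoA. Cells then draw on fatty acids, which are released from stored triglyceride by lipases, activated to acyl-CoA, carried into mitochondria on carnitine and shortened by beta-oxidation. PDK4 is the isoform best known to rise in fasting, with fatty acids and with glucocorticoids, whose receptor binds the same DNA element as PR. The question the arrays address here is whether these genes respond to progestin, and differently through the wild-type and the SUMO-deficient receptor.

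The medians of the 10 arrays lay between 8.12 and 8.15 on the log2 scale, and the difference of 3′ and 5′ control probe sets stayed between -0.14 and -0.04 for GAPDH. For ACTB it ran from 0.04 to 0.19, and its extremes are the 2 arrays of the iKR comparison with AP21967, 0.19 with vehicle and 0.04 with R5020. The part of this in the iKR differences was not tested. PGR, the gene for PR, read 6.17 and 6.25 in iEV and between 10.65 and 12.08 on the 8 iWT and iKR arrays. Its RNA signal in iWT and iKR was therefore high also without AP21967. The paper describes receptor expression in these lines as depending on AP21967 alone and measured the protein by western blot. The arrays do not measure protein. The 6 luminal epithelial markers that were checked (KRT8, KRT18, KRT19, EPCAM, CDH1 and GATA3) lay between 12.17 and 15.04 on every array. Of 9 adipocyte, stromal and immune markers, the fat cell hormones ADIPOQ and LEP and the collagen COL3A1 were below log2 6 on all arrays. The rest were not, with means of 6.11 for PTPRC, 6.38 for FABP4, 7.69 for PLIN1, 8.22 for CD3E, 8.47 for CIDEC and 9.70 for COL1A1.

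PDK4 gave the largest difference of the 10 genes with R5020. Its single probe set, 205960_at, read 6.04 and 5.89 in iEV without and with AP21967. In iWT it read 5.89 with neither compound, 5.94 with R5020 alone, 5.83 with AP21967 alone and 7.11 with both. In iKR the same 4 arrays read 5.80, 5.80, 5.74 and 7.99. The 2 arrays with both compounds thus stood above the other 8, which spanned 5.74 to 6.04, and the iKR array was the higher of them. In the presence of AP21967, the log2 difference between R5020 and vehicle was 1.28 (2.43 fold) in iWT, the rank of 36 among 10911 genes, and 2.25 (4.74 fold) in iKR, the rank of 9. The excess of iKR over iWT, 0.96, had the rank of 18. Without AP21967 the R5020 difference was 0.05 in iWT and 0.00 in iKR. These values were among those that chose the genes, and they are a description. In RNA from whole cultures, a change in every cell and a change in some of the cells cannot be told apart.

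The vehicle signal of PDK4 was near background, here taken as below log2 6. It fell below this level on 7 of 10 arrays. For reference, 17 probe sets of 14 genes restricted to other tissues, such as INS, GFAP and PRM1, had means from 4.74 to 7.76 (median 6.42), so that a fold of PDK4 is a ratio of signals whose denominator may hold little transcript. The value of 7.11 in iWT still lay inside that range, and that of 7.99 in iKR above it.

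The promoter of PDK4 is shown because the study assayed PR there by chromatin immunoprecipitation (ChIP). The paper reports more K388R than wild-type receptor at enhancers of several genes that the mutant raised. It lists PDK4 among the regions assayed and describes them as holding consensus response elements. RefSeq places the window of 250 bases before to 50 bases after the start at chr7:95596467-95596766 of GRCh38.p14, on the minus strand. Capitals mark TGTTCT, the reverse complement of AGAACA, a single arm of the palindromic element that PR and the glucocorticoid receptor bind.

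PDK4: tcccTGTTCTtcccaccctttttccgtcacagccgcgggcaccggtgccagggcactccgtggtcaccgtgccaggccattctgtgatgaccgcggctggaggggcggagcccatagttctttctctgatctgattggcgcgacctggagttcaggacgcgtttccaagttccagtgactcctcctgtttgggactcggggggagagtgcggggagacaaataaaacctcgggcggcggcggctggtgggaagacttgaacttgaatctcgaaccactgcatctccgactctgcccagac

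The study's PDK4 ChIP primers, cggagcccatagttctttctc and ttatttgtctccccgcactc, both matched inside this window. They span bases -145 to -27 relative to the start, a stretch of 119 bases that does not hold the marked letters, which lie at -246 to -241. AGAACA on either strand occurred in 14.8% of the 35116 RefSeq promoter windows, and in 2 of the 18 windows of the 10 genes, those of PDK4 and of 1 ACSL1 start. The full palindrome, searched as GNACA and TGTNC with 3 bases between them, occurred in 0.39% of all windows and in 0 of the 18. The same held for TCAAGGTCA, a sequence bound by estrogen-related receptors (0.353% of all windows), GTAAACA, bound by forkhead factors (3.42%), and AGGTCA repeated after 1 base, which is bound by PPAR with RXR (0.0228%). These are matches of letters in short windows, and they say nothing of binding here or further away.

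**Figure D1:**
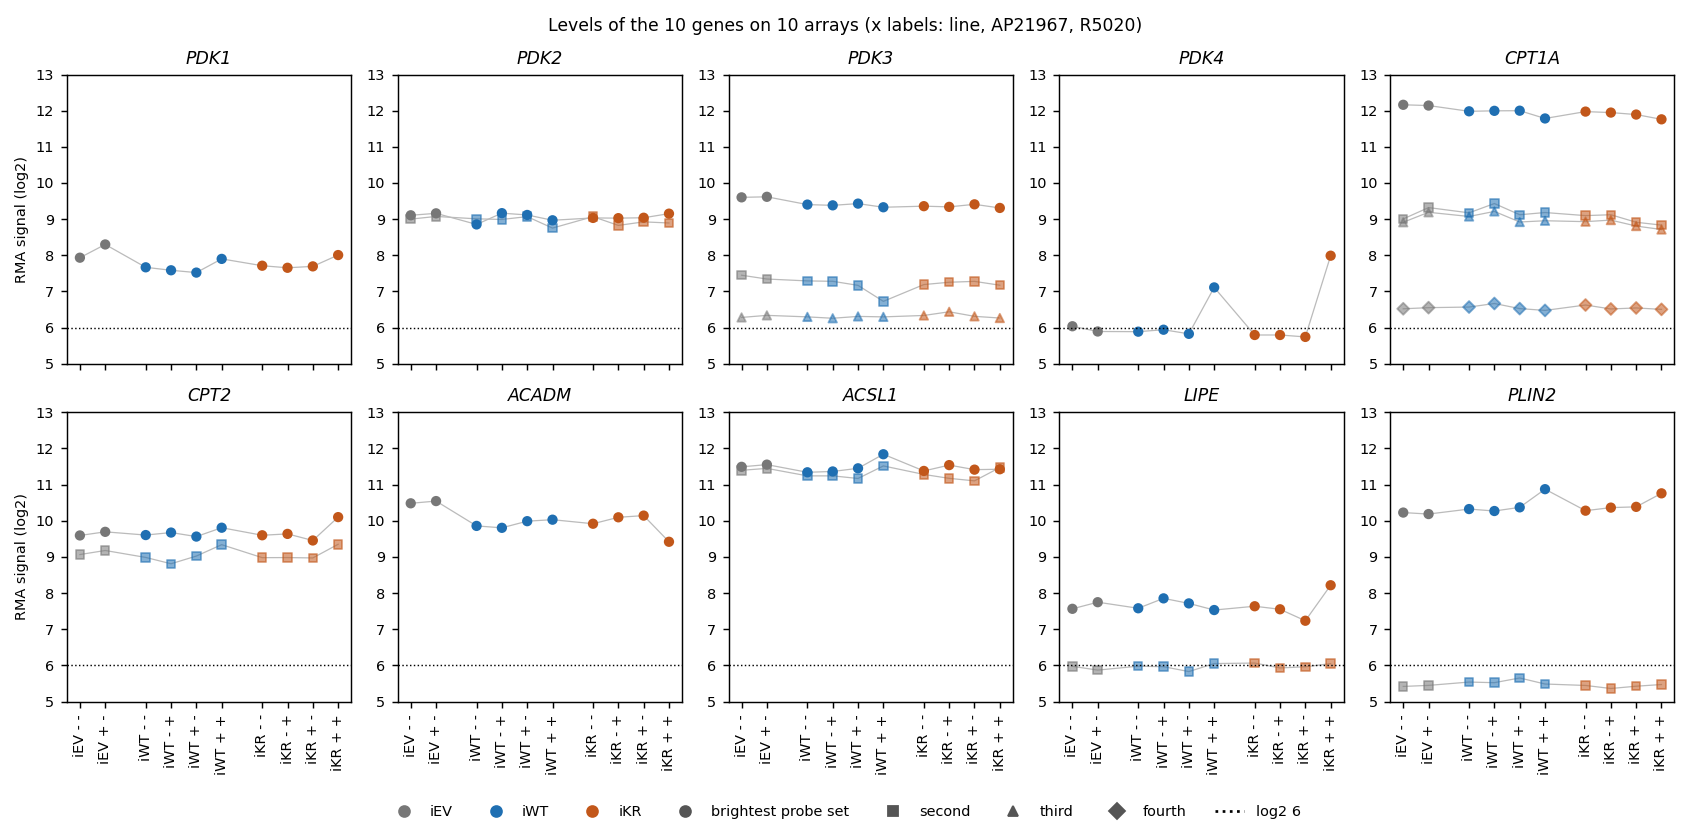
RMA signal (log2, y axis) of all 20 probe sets of the 10 genes on the 10 arrays (x axis, labelled by line, then AP21967 and R5020 as + or -). Colours are lines, marker shapes are the probe sets of a gene from the brightest to the dimmest, and the dotted line is log2 6; PDK4 reads 7.11 and 7.99 on the arrays with both compounds and 5.74 to 6.04 on the others.

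The other 3 kinases moved little. PDK1, the isoform best known as a target of hypoxia signalling, read 7.52 to 7.71 on the 6 iWT and iKR arrays that lacked R5020, AP21967 or both, and 7.90 and 8.01 with both, a difference from the AP21967 vehicle of 0.38 in iWT and 0.31 in iKR. The 2 arrays with both compounds lay above those 6, but the iEV arrays, which received no R5020, read 7.93 and 8.30. PDK2, a broadly expressed isoform, had 2 probe sets. With R5020 and AP21967, 213724_s_at differed by -0.15 in iWT and 0.11 in iKR, and 202590_s_at by -0.32 and -0.03. The largest change of 213724_s_at was 0.31 with R5020 in iWT without AP21967, from 8.85 to 9.17, so its values with and without both compounds overlapped.

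PDK3, also known as a hypoxia-responsive kinase, had 3 probe sets. The brightest, 221957_at, read 9.33 in iWT and 9.31 in iKR with both compounds, against 9.34 to 9.43 on the other 6 iWT and iKR arrays, and its R5020 difference was -0.10 in each line. For the second, 206348_s_at, it was -0.44 in iWT and -0.11 in iKR, at a mean of 7.22 that is also inside the range of the tissue-restricted reference. The third, 206347_at, stayed between 6.26 and 6.44 on all arrays, within the range of the tissue-restricted reference probe sets.

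Among the genes of fatty acid entry and oxidation, CPT2 stood higher with both compounds by both of its probe sets. CPT2 is the inner membrane enzyme that turns acylcarnitine back into acyl-CoA. The probe set 204263_s_at read 9.59 and 9.69 in iEV. In iWT it read 9.60 with neither compound, 9.67 with R5020, 9.56 with AP21967 and 9.81 with both, and in iKR 9.60, 9.64, 9.45 and 10.10. The R5020 difference with AP21967 was 0.24 in iWT and 0.65 in iKR, or 1.18 and 1.57 fold. Its second probe set, 204264_at, gave 0.32 and 0.38, with 9.34 and 9.35 on the arrays with both compounds and 8.81 to 9.02 on the other 6. By either probe set, the 2 arrays with both compounds lay above all 8 others. The first probe set differed by 0.40 more in iKR than in iWT, and the second by 0.06.

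The CPT2 promoter and, further on, that of PLIN2 are printed beside that of PDK4 because by the brightest probe set these 3 genes, and no other of the 10, read higher with both compounds than on all 8 other arrays. The share of all genes above all 8 other arrays was not counted. The nearest share is 14.4%, of genes above the 6 other iWT and iKR arrays alone. The R5020 contrast also chose the 10 genes, so this selection of promoters is a description. The CPT2 promoter lies at chr1:53196574-53196873 of GRCh38.p14 on the plus strand and held none of the motifs searched, so it has no capitals.

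CPT2: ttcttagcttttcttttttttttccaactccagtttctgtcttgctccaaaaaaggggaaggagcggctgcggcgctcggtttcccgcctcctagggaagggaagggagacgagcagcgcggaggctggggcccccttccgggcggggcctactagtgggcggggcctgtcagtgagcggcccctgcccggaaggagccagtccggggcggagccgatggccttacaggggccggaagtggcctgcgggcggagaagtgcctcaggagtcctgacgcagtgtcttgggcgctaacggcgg

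CPT1A, the outer membrane enzyme that sets the pace of long-chain fatty acid entry, went slightly the other way. The probe set 203633_at read 12.16 and 12.14 in iEV, 11.89 to 12.00 on the 6 iWT and iKR arrays that did not receive both compounds, and 11.79 in iWT and 11.76 in iKR with both. In iKR the R5020 difference was -0.13. Its 3 dimmer probe sets gave -0.05 to 0.06 in iWT and -0.10 to -0.04 in iKR, and 210687_at, at 6.48 to 6.67, lay in the range of the reference probe sets. In iWT, 2 of these 3 therefore had the opposite sign.

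ACADM, the medium-chain acyl-CoA dehydrogenase of the first step of beta-oxidation, was lower with R5020 in iKR and not in iWT. Its 1 probe set, 202502_at, read 10.48 and 10.55 in iEV. In iWT it read 9.86, 9.80, 9.99 and 10.03 in the order neither compound, R5020, AP21967 and both, and in iKR 9.92, 10.10, 10.14 and 9.42. The iKR array with both compounds was the lowest of all 10, and the corresponding iWT array lay among the rest. The R5020 difference was 0.04 in iWT and -0.72 in iKR, with no second probe set to set beside it.

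ACSL1, which activates long-chain fatty acids to acyl-CoA, gave a different account by probe set in iKR. With R5020 and AP21967, 201963_at went from 11.45 to 11.84 in iWT, a difference of 0.39, and was 11.41 and 11.42 in iKR, a difference of 0.01. The other probe set, 207275_s_at, went from 11.17 to 11.52 in iWT and from 11.10 to 11.47 in iKR, differences of 0.35 and 0.37. The iWT values agreed between the probe sets, and the iKR values did not.

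LIPE, hormone-sensitive lipase, which splits diacylglycerol and other esters of the lipid droplet, gave by its brightest probe set an excess of iKR over iWT of 1.17, the rank of 9 among all genes. The excess was 0.52 with averaged probe sets and 0.63 with vehicle arrays without AP21967 as references, where that of PDK4 was 0.96 and 0.97. The probe set 208186_s_at had a mean of 7.66, inside the range of the tissue-restricted reference probe sets, 4.74 to 7.76. It read 7.57 and 7.75 in iEV. In iWT the 4 arrays read 7.58 with neither compound, 7.85 with R5020, 7.72 with AP21967 and 7.53 with both, and in iKR 7.64, 7.55, 7.23 and 8.22. The iKR array with both compounds was the highest of the 10, and the iKR array with AP21967 alone, its reference, was the lowest. The R5020 difference of 0.98 in iKR therefore fell to 0.58 when the iKR vehicle array without AP21967 was the reference. In iWT it was -0.18. The second probe set, 213855_s_at, read 5.83 to 6.06, below log2 6 on 7 of 10 arrays, and gave 0.22 in iWT and 0.09 in iKR.

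PLIN2, a coat protein of lipid droplets whose level is known to follow the fat content of a cell, was higher in both lines. The probe set 209122_at read 10.23 and 10.19 in iEV, 10.27 to 10.39 on the 6 iWT and iKR arrays that did not receive both, and 10.87 in iWT and 10.76 in iKR with both. The R5020 differences were 0.50 and 0.37, and the 2 arrays stood above the other 8. The second probe set, 215895_x_at, was near background on all 10 arrays, at 5.36 to 5.65, and gave -0.17 and 0.05. Its promoter lies at chr9:19127443-19127742 of GRCh38.p14 on the minus strand, and capitals mark TTTATA, the reverse complement of a TATAAA box, at -29 to -24.

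PLIN2: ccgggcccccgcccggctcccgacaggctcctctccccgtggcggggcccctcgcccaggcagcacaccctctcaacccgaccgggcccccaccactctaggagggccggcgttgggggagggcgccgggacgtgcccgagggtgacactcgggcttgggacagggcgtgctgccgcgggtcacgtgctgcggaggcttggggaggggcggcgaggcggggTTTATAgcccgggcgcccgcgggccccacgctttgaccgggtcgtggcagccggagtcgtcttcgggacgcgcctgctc

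TATAAA on either strand occurred in 11.5% of all windows and in 3 of the 18, those of PLIN2, 1 PDK1 start and 1 ACSL1 start. The PDK4 window held none. The GC content was 60.7% in the PDK4 window, 65.0% in that of CPT2 and 76.7% in that of PLIN2, against a median of 58.7% over all windows.

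Counted over the 10 genes, PDK4 alone passed 2.0 fold with R5020 and AP21967, in iWT and in iKR, where 0.614% and 1.48% of all 10911 genes did. At 1.5 fold, PDK4 was again the 1 gene in iWT, and in iKR there were 4, PDK4, CPT2 and LIPE higher and ACADM lower, beside 2.61% of all genes in iWT and 6.19% in iKR (3.02% higher and 3.16% lower). The count of 4 depends on the reference array and the probe set. With the vehicle array without AP21967 as reference, CPT2 (0.50), ACADM (-0.50) and LIPE (0.58) fell short of 1.5 fold, and PDK4 was the 1 gene past it. With averaged probe sets, CPT2 (0.51) and LIPE (0.54) fell short, and PDK4 and ACADM passed. For the excess of iKR over iWT, 3 passed 1.5 fold, PDK4 and LIPE higher and ACADM lower, beside 2.5% of all genes (1.03% higher and 1.48% lower). These counts rest on the contrast that chose the genes. The median difference of the 10 genes was 0.14 in iWT and 0.21 in iKR, and that of all genes -0.02 and 0.03. Without overlap, 4 genes (PDK1, PDK4, CPT2 and PLIN2) were higher on the 2 arrays with both compounds than on the other 6 iWT and iKR arrays and 2 (PDK3 and CPT1A) lower, while 14.4% and 12.1% of all genes did so.

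The probe sets of a gene did not always tell the same story. Of the 10 further probe sets in the 7 genes with several, 6 had the sign of the brightest in iWT and 9 in iKR. The pairs of CPT2 and ACSL1 matched in sign in both lines. PDK1, PDK4 and ACADM have 1 probe set each, so their values have no such check.

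**Figure D2:**
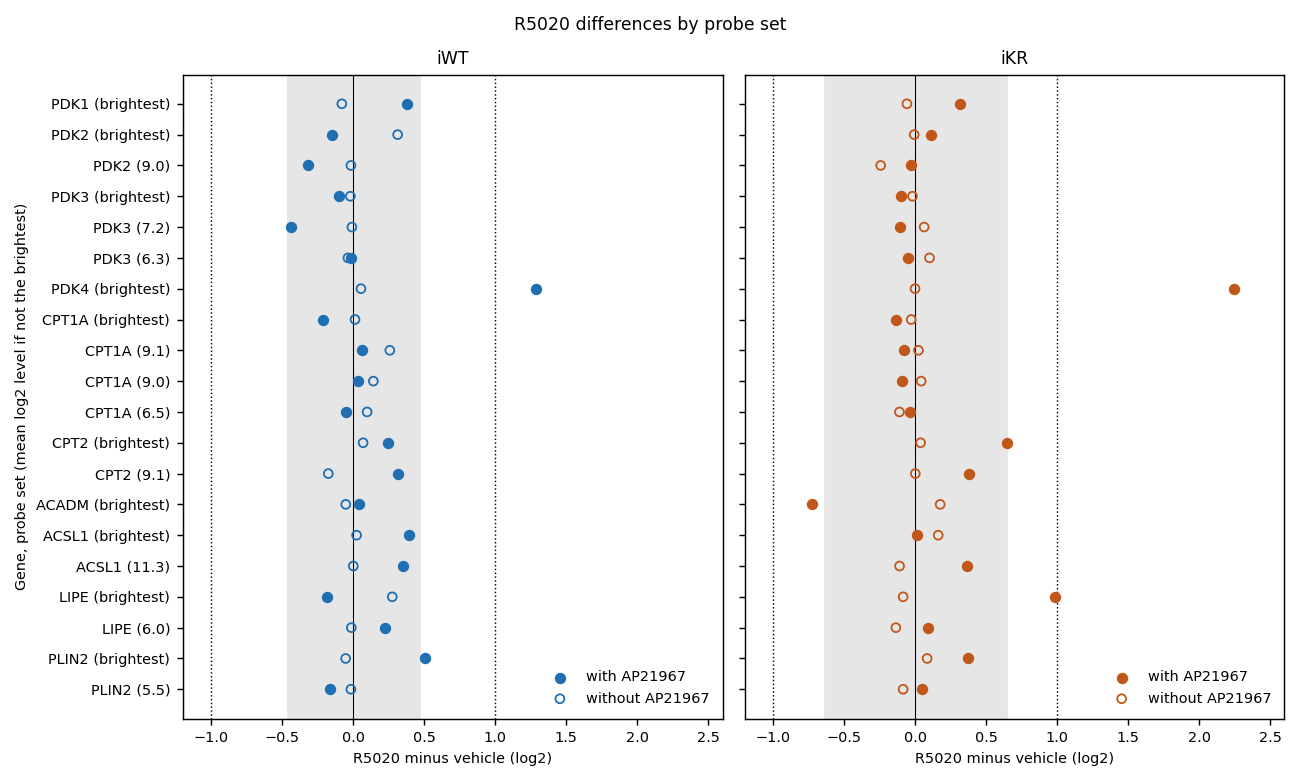
R5020 minus vehicle (log2, x axis) for each of the 20 probe sets (y axis) in iWT and iKR, with AP21967 as filled and without it as open points. The grey band holds the central 95% of all 10911 genes with AP21967, -0.46 to 0.47 in iWT and -0.63 to 0.65 in iKR, and dotted lines mark 2.0 fold; by the brightest probe set, PDK4 lies outside in both lines, PLIN2 (0.50) in iWT, and LIPE and ACADM in iKR.

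Without AP21967, R5020 moved the 10 genes by -0.08 to 0.31 in iWT and -0.08 to 0.18 in iKR, and 0 of 10 passed 1.5 fold, beside 0.11% and 0.0825% of all genes. The PDK2 and LIPE values of 0.31 and 0.27 in iWT lay outside the central 95% of all genes there, -0.25 to 0.27. AP21967 alone, without R5020, also moved 0 of 10 past 1.5 fold, beside 0.0367% of genes in iEV, 0.0825% in iWT and 0.11% in iKR. The largest of these differences were 0.37 for PDK1 in iEV and -0.40 for LIPE in iKR, and PDK2 differed by 0.26 in iWT.

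The lines were then compared on the 6 arrays without R5020, 2 per line, by limma with line and AP21967 as terms across all genes. The iWT and iKR arrays with AP21967 alone are also the references of the R5020 differences above. The p-values measure only the spread between these arrays of 1 clone per line. ACADM was lower in both receptor lines than in iEV. Its mean was 10.51 in iEV, 9.92 in iWT and 10.03 in iKR. The difference from iEV was -0.59 (SE 0.06, adjusted p = 0.0005) in iWT and -0.48 (SE 0.06, adjusted p = 0.0012) in iKR by limma, and the adjusted p stayed between 4.1e-06 and 0.00058 and between 2.4e-05 and 0.0016 over 7 alternative settings. The 4 receptor-line arrays read 9.86 to 10.14 and the iEV arrays 10.48 and 10.55.

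PDK1 was also lower, with means of 8.12, 7.60 and 7.70 in iEV, iWT and iKR. The differences were -0.52 (SE 0.11, adjusted p = 0.012) and -0.41 (SE 0.11, adjusted p = 0.03) by limma. The iEV arrays themselves differed by 0.37, from 7.93 to 8.30, and the 4 receptor-line arrays read 7.52 to 7.71.

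PDK3 was lower by smaller amounts, -0.19 in iWT (adjusted p = 0.039) and -0.23 in iKR (adjusted p = 0.02) by limma. These PDK3 calls were lost when its 3 probe sets were averaged (limma adjusted p of 0.14 and 0.12), and over all alternatives the adjusted p ran from 0.024 to 0.14 and from 0.0094 to 0.12. In iKR, CPT1A differed by -0.22 (adjusted p = 0.028) and PDK4 by -0.20 (adjusted p = 0.042) by limma. The PDK4 means of 5.97 and 5.77 are both near background. Of the arrays in this fit, only iEV without AP21967 reached log2 6 for PDK4, at 6.04. PDK4 thus passed the level filter through the line that was higher here and arrays outside the fit, so its call is a description. The CPT1A call was lost when its 4 probe sets were averaged (adjusted p = 0.25, the highest of a range from 0.0013), and the PDK4 adjusted p ranged from 0.032 to 0.11 over the alternatives. In iWT, CPT1A and PDK4 went the same way, by -0.16 and -0.11, and were not called (limma adjusted p of 0.085 and 0.23). With a trend in the limma prior, CPT1A was called in iWT too (adjusted p = 0.011).

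In all, 3 of the 10 genes were called in iWT against iEV and 5 in iKR against iEV, and each of these was lower. The 5 include PDK4, whose call is a description. Over all genes, 23.8% and 25.7% were called, with 11.8% and 12.8% lower. Between iKR and iWT, 0 of the 10 were called by limma, against 5.01% of all genes. At an unadjusted p under 0.05 there were also 0, and the share of all genes at that threshold was not counted. The estimates of iKR minus iWT ran from -0.21 for LIPE (SE 0.13) to 0.11 for PDK1 (SE 0.11). PLIN2, at 0.14 (adjusted p = 0.14) and 0.13 (adjusted p = 0.18) above iEV in iWT and iKR, and CPT2, ACSL1, PDK2 and LIPE did not pass in any of the 3 line comparisons. The PGR signal also differed between iEV and the receptor lines, as given above, and its part in these differences was not tested.

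**Figure D3:**
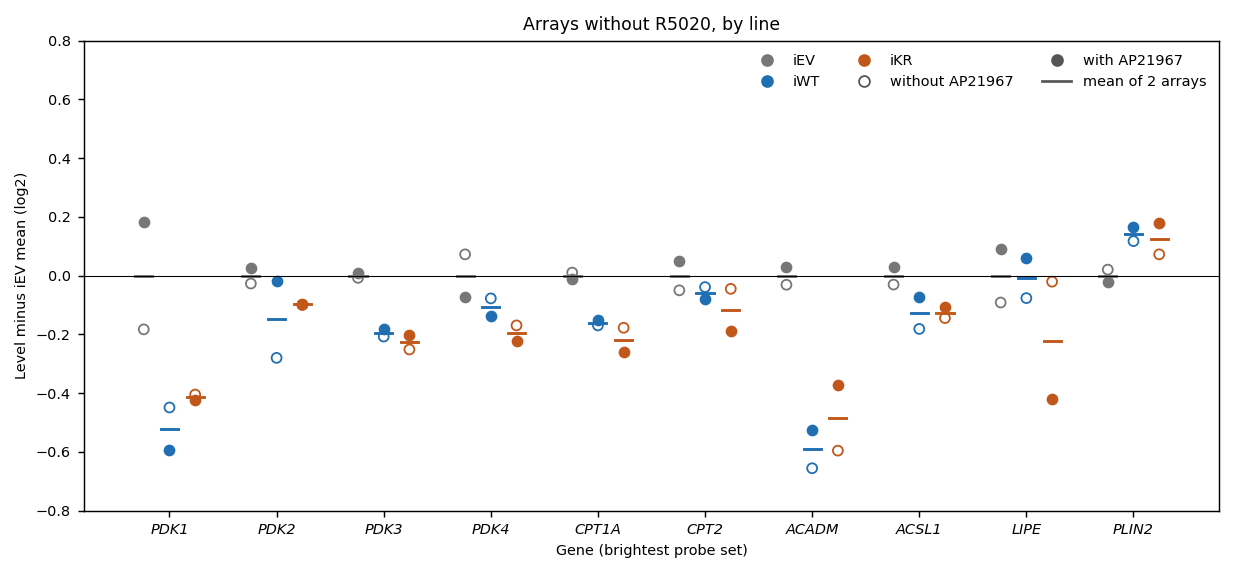
Level of each gene minus its iEV mean (log2, y axis) on the 6 arrays without R5020, for the brightest probe set of the 10 genes (x axis). Open points are arrays without and filled points with AP21967, bars are means of 2 arrays, and colours are lines; the iWT and iKR points of PDK1 and ACADM lie at or below -0.37.

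Other genes of the same pathways were taken from 7 lists with 86 genes, of which 74 had a probe set and 68 passed the level filter. They were tested for an R5020 response with AP21967 beyond that without it, shared by iWT and iKR, by limma on the 8 iWT and iKR arrays. This fit takes iWT and iKR, which carry different receptors, as replicates of each other. Its error is the disagreement of these lines, so genes that respond unequally in them are less likely to be called. In all, 3 rose and 1 fell, beside 1.41% and 0.687% of all genes. At an unadjusted p under 0.05 there were 4 higher and 7 lower, and the share of all genes at that threshold was not counted. Of the 68, the median difference was -0.06 in iWT and 0.00 in iKR.

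Of the 9 genes of the pyruvate dehydrogenase complex and pyruvate entry, 0 rose and 0 fell by limma, and 1 was higher at an unadjusted p under 0.05. PDHA1, the E1 subunit that PDK enzymes phosphorylate, differed by 0.03 in iWT and 0.45 in iKR (adjusted p = 0.57 by limma), PDHB, its partner, by -0.13 and -0.20 (adjusted p = 0.51), and PDPR, the regulatory subunit of the phosphatase that opposes PDK, by 0.33 and 0.28 (adjusted p = 0.22). Of the 16 genes of mitochondrial beta-oxidation, 0 were called by limma, and 0 had an unadjusted p under 0.05. Those with the largest limma effects, 0.24, 0.21 and -0.25, were ACADS, the short-chain relative of ACADM (differences of 0.13 in iWT and 0.18 in iKR), ECI1, an enoyl-CoA isomerase (-0.09 and 0.32), and ETFA, which takes electrons from the acyl-CoA dehydrogenases (-0.12 and -0.34).

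In the carnitine shuttle, 1 of 3 rose. SLC22A5, the plasma membrane carnitine transporter, rose with R5020 and AP21967 by 0.71 in iWT and by 0.71 in iKR, and differed by -0.06 and -0.05 without AP21967 (limma effect 0.77, SE 0.11, adjusted p = 0.009). SLC25A20, which carries acylcarnitine across the inner membrane, differed by 0.04 and 0.00, and CRAT, carnitine acetyltransferase, by -0.04 and -0.04. In peroxisomal oxidation 1 of 9 fell, CROT, carnitine octanoyltransferase, with differences of -0.53 and -0.60 (adjusted p = 0.027 by limma), a call that was lost with cyclic loess (adjusted p = 0.054, the highest of a range from 0.017). EHHADH, the bifunctional enzyme of peroxisomes, gave -0.31 and -0.76 and was not called (adjusted p = 0.29), and PEX11A, a peroxisome division factor, gave -0.44 and -0.26 with -0.23 and -0.11 already without AP21967.

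Of the 8 tested genes of fatty acid uptake and activation and the 13 of lipolysis and lipid droplets, 0 were called by limma, while 2 and 1 were lower at an unadjusted p under 0.05. The scavenger receptor CD36 differed by -0.29 and -0.49 (adjusted p = 0.18 by limma), SLC27A2, a fatty acid transporter, by -0.13 and -0.29, and FABP3, a fatty acid binding protein with a mean of 6.12, by 0.26 and -0.09. In the droplet list, PLIN3, a relative of PLIN2, gave 0.09 and 0.47, HILPDA, an inhibitor of the lipase ATGL, -0.15 and -0.56, and ANGPTL4, an inhibitor of lipoprotein lipase, -0.10 and 0.21.

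Of 10 transcriptional regulators, 2 rose. ESRRG, an orphan estrogen-related receptor known to drive oxidative metabolism genes, rose, with a difference of 2.59 in iWT and of 2.29 in iKR (limma effect 2.50, SE 0.14, adjusted p = 6.9e-05), and its second probe set by 3.55 and 3.67. FOXO1, a forkhead factor that is known to act on PDK4 in fasting, also rose, by 0.79 and 1.42 (limma effect 1.18, SE 0.22, adjusted p = 0.03), and its second probe set by 0.42 and 1.67. The FOXO1 call was lost when its probe sets were averaged (adjusted p = 0.11) and after cyclic loess (adjusted p = 0.062), in a range of 0.01 to 0.11. RXRA, the partner of many nuclear receptors, gave -0.39 and -0.75 and was not called (adjusted p = 0.1).

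**Figure D4:**
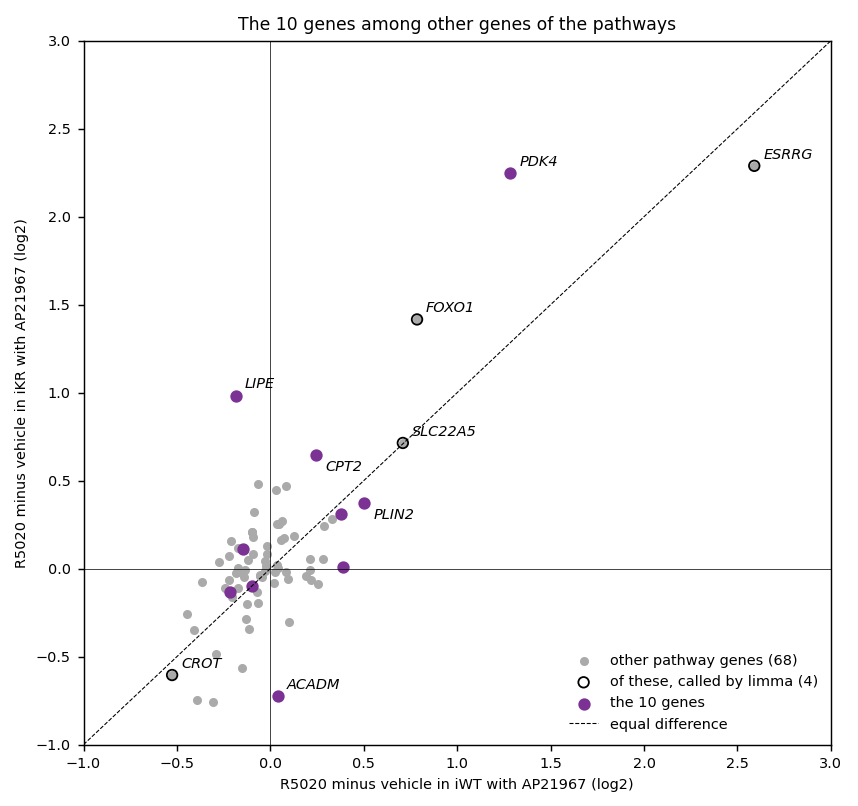
Difference of R5020 and vehicle with AP21967 (log2; x axis, iWT; y axis, iKR) for the 10 genes in purple and 68 other genes of the pathways in grey, of which the 4 called by limma are ringed. The dashed line marks an equal difference in both lines; PDK4 (1.28, 2.25), FOXO1 (0.79, 1.42) and LIPE (-0.18, 0.98) lie above it and ESRRG (2.59, 2.29) and ACADM (0.04, -0.72) below.

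The genes whose level over the 10 arrays was most like that of PDK4 by Pearson correlation were KAZN (0.993), GMPR (0.993), RASGRP1 (0.993), TEX10 (0.991) and SLC15A2 (0.991). The correlation rests on the 2 arrays with both compounds, since the other 8 PDK4 values span 0.30, and the Spearman correlations of these 5 genes were 0.552 to 0.867. RASGRP1, a Ras activator of lymphocytes, read 5.07 to 5.23 on the other 8 arrays, 7.39 in iWT and 9.16 in iKR with both compounds, and its R5020 differences of 2.17 and 3.96 were larger than those of PDK4 in each line. KAZN differed by 0.58 in iWT and 1.12 in iKR. Within the 10 genes, the correlation with PDK4 over the arrays was 0.933 for CPT2 and 0.854 for PLIN2, and -0.695 for CPT1A. All of these share the arrays and their normalization, and no p is given.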

How the data were processed

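The authors hybridized RNA from 10 conditions to Affymetrix U133A 2.0 arrays and normalized them in R (package affy) by Robust Multi-array Average. The deposited values are background-corrected, quantile-normalized log2 signals of 22277 probe sets, in which small changes of dim genes are compressed. Platform annotation paired 19070 probe sets with 1 gene, 1043 with several and 2164 with none, and only the first were used. A gene was represented by its probe set with the highest mean, giving 11963 genes, and 10911 genes with log2 6 or more on any array were compared. R5020 and AP21967 differences are between single arrays and were called past 2.0 or 1.5 fold, without a test. limma 3.58.1 in R 4.3.3 was fitted across all genes, with Benjamini-Hochberg adjusted p under 0.05 called, to 8 iWT and iKR arrays (terms for line by inducer, and R5020 effects without and with AP21967) and to 6 arrays without R5020 (line and AP21967), each with 2 residual degrees of freedom. The fits were checked on simulated data with independent noise on each array. These data held no variation between clones and no R5020 response that differed by line, so the check does not cover either.

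The 10 genes and the 7 lists of other pathway genes were chosen with earlier results of these data known. From these lists the text names each gene called by limma or past 2.0 fold in either line, and otherwise the largest limma effects up to 3 per list; it also names the 5 genes most like PDK4. Promoters came from RefSeq (GRCh38.p14), where all 10 genes matched. Motifs were searched on both strands. Alternatives were averaged probe sets, no _x_at or _s_at probe sets, cyclic loess or median centring, other level filters, other reference arrays, other fold thresholds and other limma settings. Arrays have no depth, and their number limits the precision. The comparison of 2 against 6 arrays for overlap was chosen after the values were seen. Python 3.11.15 and matplotlib 3.10.9 were used.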

Additional observations from a re-analysis of the deposited data

Results flagged for a closer look

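For 3 of the 10 genes, the R5020 difference of the brightest probe set with AP21967 had opposite signs in iWT and iKR. With 1 array per condition this difference was not tested. LIPE differed by -0.18 in iWT and 0.98 in iKR, an excess of 1.17 in iKR, which was 0.52 with averaged probe sets. Its second probe set, near log2 6, had the same sign in both lines, 0.22 and 0.09. ACADM differed by 0.04 and -0.72, an excess of -0.76. Its SD of 0.15 from the limma fit of iWT and iKR arrays comes from this same excess, so it does not measure array noise for the iWT value. PDK2 differed by -0.15 and 0.11, an excess of 0.26. Its second probe set was negative in both lines, and with the vehicle without AP21967 as reference the brightest gave 0.12 in both.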

How the results depend on the processing

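No paired analysis was possible because the groups share only replicate number 1, and each group holds 1 array. Of the values of single genes recomputed under the alternatives, 350 stayed within the criteria, 43 moved, 10 lost a call and 2 gained one. For R5020 differences, the criterion was a change no larger than the gene's SD from the limma fit of iWT and iKR arrays. This SD grows with the disagreement of these lines and was widest for LIPE (0.22) and PDK4 (0.18). Staying within it therefore means less for them. The sign changed for 8 of these 405 values, in 6 genes, none of them called or past 1.5 fold and none over 0.18 in size as reported. They include PDK2 in iWT (-0.15 to 0.12 with the vehicle without AP21967 as reference), LIPE in iWT (-0.18 to 0.02 with averaged probe sets), PLIN2 for iKR minus iWT (-0.13 to 0.04, likewise) and ACSL1 in iKR (0.01 to -0.15 net of the difference without AP21967). Of the 10 genes, 1 passed 2.0 fold with R5020 in iKR with AP21967 (1.48% of all genes) and 4 passed 1.5 fold (6.19%). Net of the difference without AP21967, 2 passed 2.0 fold. The 4 at 1.5 fold became 2 with averaged probe sets, 1 with the vehicle without AP21967 as reference and 2 of 8 when _x_at and _s_at probe sets were left out, alternatives chosen after seeing the data. For iKR minus iWT, 3 passed 1.5 fold (2.5% of all genes) and 1 passed 2.0 fold. Where no share of all genes stands beside a fold count, the count cannot be set against one. In iKR against iEV, 5 were called and 3 with the mean of probe sets, beside 2809 of 10911 and 2825 of 10705 genes. Of the other pathway genes, 4 were called for the shared R5020 response, 2 with cyclic loess and 2 of 43 without _x_at and _s_at probe sets. Over all genes, 229 of 10911, 153 of 10906 and 169 of 7241 were called in these settings. Leaving out probe sets also reduces the genes tested over all genes to 7241, and the calls for iWT against iEV from 2602 to 1518, for iKR against iEV from 2809 to 1623 and for iKR against iWT from 547 to 292. Calls for iKR against iWT came to 988 with a trend in the limma prior. The 229 calls for the shared response became 351 with that trend, 441 on all 10 arrays and 153 with cyclic loess. Apart from those named, the cause was not tested. No replicate could be left out, and PDK4, LIPE 213855_s_at and PLIN2 215895_x_at are limited by their signal over background. The mean of LIPE 208186_s_at, 7.66, also lay inside the range of the tissue-restricted reference probe sets.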
